A study of Homo sapiens with 8 samples.

Results

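The myeloid S100A genes of human chromosome 1q21 described here are S100A8, S100A9, S100A12, S100A4, S100A6, S100A10 and S100A11. These 7 genes, of 20090 protein-coding genes in the annotation, were taken by name, and the peaks of 2 histone marks were read over each gene plus 5 kb on each side, at its transcription start site (TSS) and over the stretches between neighboring genes. The cells were HL-60, an established human cell line from peripheral blood that the labels give as acute promyelocytic leukemia. They were treated for 4 days with 1 µM all-trans retinoic acid (ATRA) or, as control, with an equal amount of ethanol, the solvent of ATRA. Chromatin immunoprecipitation followed by sequencing (ChIP-seq) was performed for H3K4me3, trimethylation of lysine 4 on histone H3 and a mark of active promoters, and for H3K27ac, acetylation of lysine 27 and a mark of active promoters and enhancers. For each mark, 2 replicates were made per condition, 8 libraries in all, and the labels do not say whether replicates came from separate cultures. HL-60 is a single cell line, so the values describe these cultures and no primary cells.

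S100 proteins are small calcium-binding proteins of the EF-hand type, and most of the S100A genes lie side by side in this cluster. S100A8 and S100A9 are the subunits of calprotectin, which fills the cytosol of neutrophils, binds zinc and manganese and acts on TLR4 when released, and S100A12 (calgranulin C) is a related protein that binds the receptor AGER. S100A4 binds non-muscle myosin, S100A6 (calcyclin) and S100A11 bind annexins, and S100A10 forms a complex with annexin A2 and has lost the ability to bind calcium.

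The 7 promoters differ in base composition, and those of S100A9, S100A8, S100A12 and S100A10 are printed to show both ends of that range. Each is the 250 bases before the canonical TSS on hg19, read 5′ to 3′ on the strand of the gene from the GRCh37 genome sequence. Capitals mark exact matches to 3 of the motifs searched on both strands: the TATA box letters TATAAA, the ETS core GAGGAA, which reads TTCCTC when it lies on the other strand, and the C/EBP-like letters TTNNGNAAT, which match the other strand of S100A9. In S100A12 they also mark the AP-1 letters TGANTCA.
S100A9 promoter, chr1:153330080-153330329, plus strand: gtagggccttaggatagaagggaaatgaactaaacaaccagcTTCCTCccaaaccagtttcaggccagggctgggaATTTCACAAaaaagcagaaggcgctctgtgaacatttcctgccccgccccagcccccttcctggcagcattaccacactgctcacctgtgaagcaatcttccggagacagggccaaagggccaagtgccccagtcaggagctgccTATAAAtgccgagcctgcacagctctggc
S100A8 promoter, chr1:153363550-153363799, minus strand: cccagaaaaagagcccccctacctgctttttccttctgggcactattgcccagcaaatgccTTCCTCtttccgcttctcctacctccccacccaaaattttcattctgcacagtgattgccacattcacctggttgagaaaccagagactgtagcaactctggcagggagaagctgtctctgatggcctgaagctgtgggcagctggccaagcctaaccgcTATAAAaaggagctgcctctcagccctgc
S100A12 promoter, chr1:153348098-153348347, minus strand: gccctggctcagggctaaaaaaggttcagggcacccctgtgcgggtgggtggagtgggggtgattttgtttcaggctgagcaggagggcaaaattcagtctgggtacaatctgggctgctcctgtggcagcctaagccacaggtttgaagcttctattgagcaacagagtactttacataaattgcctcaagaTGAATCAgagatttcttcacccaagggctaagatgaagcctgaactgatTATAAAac
S100A10 promoter, chr1:151966336-151966585, minus strand: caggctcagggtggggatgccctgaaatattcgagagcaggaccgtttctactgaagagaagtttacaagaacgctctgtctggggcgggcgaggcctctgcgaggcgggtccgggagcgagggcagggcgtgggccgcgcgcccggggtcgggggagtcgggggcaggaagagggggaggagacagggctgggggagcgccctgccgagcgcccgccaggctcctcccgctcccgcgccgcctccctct

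The S100A9 promoter held 4 CpG dinucleotides, the S100A8 promoter 2 and the S100A12 promoter 1, against a median of 18 over 20086 protein-coding promoters of the same length. Their ratios of observed to expected CpG were 0.210, 0.120 and 0.0681, and 13.9%, 7.32% and 3.95% of all promoters had a lower ratio. S100A4 was also low, with 7 CpG and a ratio of 0.284. S100A11 was close to the median promoter, with 15 CpG and a ratio of 0.741 (median ratio 0.747). S100A10, with 24 CpG and a ratio of 0.786, and S100A6, with 24 and 0.803, were above it. TATAAA stood 29 to 24 bases before the TSS in both S100A8 and S100A9 and 31 to 26 bases before it in S100A4, and 9.41% of all promoters held a match. In S100A12 the same letters lay closer to the start, 8 to 3 bases before it. GAGGAA matched on the other strand of S100A9 (208 to 203 bases before the TSS) and of S100A8 (189 to 184), and 23.2% of all promoters held it. TTNNGNAAT, found in 7% of all promoters, matched in S100A9 and in S100A11, and TGANTCA, found in 4.73%, matched in S100A12. No motif of the list was found in S100A10 or S100A6. Direct repeats of the retinoic acid response element were searched only as exact copies of AGGTCA with 2 or 5 bases between them. They had no match in any of the 20086 promoters, so this search cannot tell whether a member holds a less exact element. CCAAT, present in 34.1% of all promoters, matched in no member.

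The values analyzed were the positions of broad peaks that the authors had called in each library separately. The H3K4me3 libraries held 16258 and 16487 peaks after ATRA and 16160 and 13241 in control, and the H3K27ac libraries 28200 and 39332 after ATRA and 15457 and 29616 in control, in replicates 1 and 2. The length of genome under peaks was therefore larger after ATRA, by 0.22 for H3K4me3 and by 0.87 for H3K27ac on the log2 scale. No read counts were available, so the depth behind a peak is unknown, and a place without a peak is not shown to lack the mark. A gene was counted as higher after ATRA when the length under peaks in both ATRA libraries exceeded that in both control libraries, and as lower in the reverse case. With 2 libraries against 2 no exact two-sided permutation test can give a p below 0.33, so each count is read against the share of all 20090 genes that meet the same rule. As a check of the cell label, all 10 promyelocyte and neutrophil genes examined had an H3K4me3 peak in their windows in at least 1 library. Over all genes, 34% had no such peak. At the TSS, 5 of them (among them MPO, CEBPE and SPI1) carried H3K4me3 in all 4 libraries, as did 50.4% of all genes. That count lies near the share of all genes and does not by itself check the label. Another 3 (PRTN3, ITGAM and CYBB) carried it in both ATRA libraries only, against 0.259% of all genes. ELANE and AZU1 carried it in no library, as did 45.7% of all genes. In control the ELANE window held 323 and 0 bp under H3K4me3, and the CYBB window 0 bp in both libraries. None of the 3 T cell, 3 B cell or 3 keratinocyte markers had H3K4me3 at its TSS in any library, a state of 45.7% of all genes. Among monocyte markers, CSF1R had H3K4me3 at the TSS in both ATRA libraries and in neither control library, as S100A8 and S100A9 did, and CD14 had 1933 and 3792 bp under H3K27ac after ATRA and 0 bp in control. Among erythroid markers, KLF1 had H3K4me3 at the TSS in 3 of the 4 libraries, and HBB had no H3K4me3 peak. H3K27ac over the T cell genes CD3D, CD3E and CD3G summed to 10610 and 10100 bp after ATRA against 0 and 584 bp in control, over the B cell markers to 4876 and 1828 bp against 3205 and 3177 bp, and the part of other cells in the results was not tested.

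S100A9 (chr1:153330330-153333499, plus strand, TSS at 153330330) had H3K4me3 after ATRA and none in control. The length under H3K4me3 peaks in its 13170 bp window was 5359 and 3683 bp in the ATRA libraries and 0 bp in both control libraries. One peak covered the TSS in each ATRA library, reaching 1810 and 851 bp upstream and 3548 and 2831 bp downstream. Only the peak of replicate 1 ran past the end of the gene. H3K27ac covered 8104 and 9139 bp of the window after ATRA, against 0 and 200 bp in control. The groups lay far apart for both marks, and the log2 change of the mean H3K27ac length was 3.13 (3.19 in replicate 1 and 3.08 in replicate 2, with 1000 bp added to each length). Here and below, values per replicate compare libraries of the same number, which the labels do not give as pairs. A larger H3K27ac change on this scale was found in 0.553% of all genes. The H3K27ac peaks reached farther than those of H3K4me3 on both sides, 1829 and 2710 bp upstream and 4782 and 5838 bp downstream of the TSS. The only control peak in the window was a 200 bp H3K27ac peak of replicate 2 inside the gene.

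S100A8 (chr1:153362508-153363549, minus strand, TSS at 153363549), whose TSS lies 33219 bp from that of S100A9, showed the same pattern. H3K4me3 covered 3997 and 1715 bp of its 11042 bp window after ATRA and 0 bp in both control libraries. The peaks at the TSS reached 1589 and 450 bp upstream and 2165 and 1264 bp downstream. Here too H3K4me3 was found at the start only in ATRA-treated cells, with the longer peak in replicate 1. H3K27ac covered 5901 and 7821 bp after ATRA, with 3 and 2 peaks, and no H3K27ac peak was listed in either control library. In replicate 2 an H3K27ac peak ran over the TSS, from 2957 bp upstream to 1665 bp downstream. In replicate 1 the nearest H3K27ac peak ended 127 bp short of the TSS, so the start itself was under H3K27ac in 1 of the 2 ATRA libraries and within 1 kb of a peak in both.

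The 2 marks differed in the strength that the peak caller gave their peaks over these genes. The deposited −log10 q (q is the p-value of a peak adjusted for multiple testing) of the ATRA H3K4me3 peaks ran from 13.95 to 37.02 over S100A8 and from 22.66 to 23.85 over S100A9. That of the H3K27ac peaks ran from 1.39 to 4.04 over S100A8 and from 0.89 to 4.36 over S100A9. All H3K27ac peaks over both genes thus fell short of a −log10 q of 5, and with that threshold no H3K27ac peak was left over either gene. This was the common outcome for the mark, since the share of peaks reaching that value was 12.8% to 16.9% in the H3K27ac libraries and 80.2% to 87.4% in the H3K4me3 libraries.

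S100A12 (chr1:153346187-153348097, minus strand, TSS at 153348097) lies between S100A9 and S100A8 and had no H3K4me3 peak in any of the 4 libraries. H3K27ac covered 1940 bp of its 11911 bp window in ATRA replicate 2, in 3 peaks, and 0 bp in ATRA replicate 1 and in both control libraries. One of these peaks crossed the TSS, from 579 bp upstream to 82 bp downstream. It was weak, with a −log10 q of 0.63, and the others in the window had 1.5 and 1.16. The ATRA libraries differed from each other, and the gene was counted as neither higher nor lower.

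From 5 kb before S100A9 to 5 kb past S100A8, 43220 bp in all, H3K4me3 peaks covered 21.6% and 12.5% of the sequence after ATRA and none of it in control. H3K27ac peaks covered 33.9% and 45.9% after ATRA, and 0% and 0.463% in control. The stretches between the 3 genes carried part of this H3K27ac. Between S100A9 and S100A12, H3K27ac covered 3105 and 5103 bp of 12687 bp after ATRA, and between S100A12 and S100A8 it covered 4824 and 4776 bp of 14410 bp, with 0 bp in all control libraries for both. H3K4me3 in these stretches was short after ATRA, with 379 and 0 bp in the first and 1366 and 223 bp in the second. In control it was 0 bp. Apart from a 242 bp peak in ATRA replicate 1, this H3K4me3 was the edge of the peaks over S100A9 and S100A8.

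**Figure D1:**
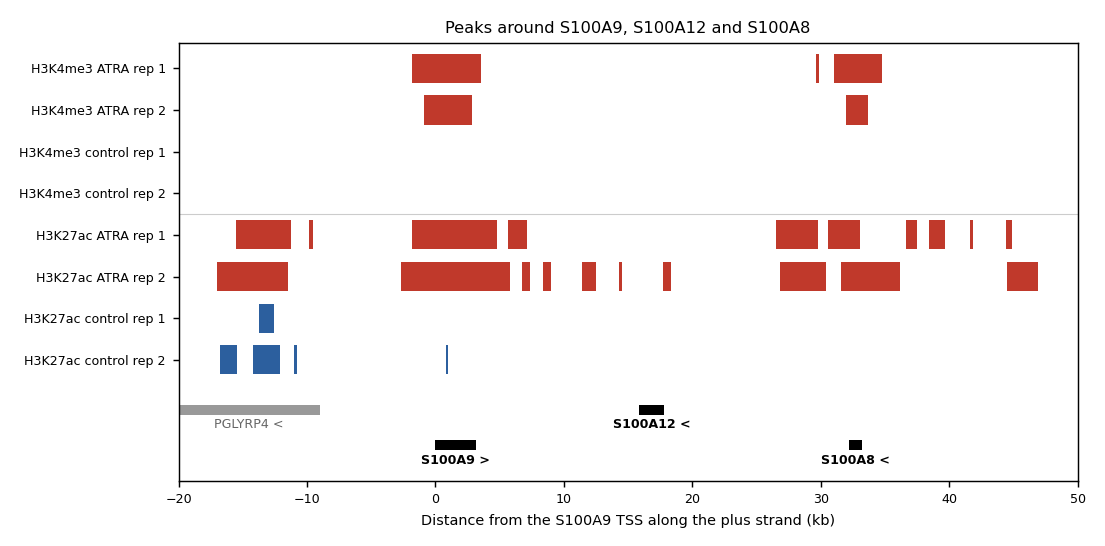
Peaks of each of the 8 libraries around S100A9, S100A12 and S100A8. The x axis is the distance from the S100A9 TSS in kb along the plus strand, each row is a library, each bar a peak (red ATRA, blue control), and gene bodies are drawn below with the direction of transcription. ATRA libraries have H3K4me3 at S100A9 and S100A8, where neither control library has a peak, and H3K27ac over and between the genes, and S100A12 has no H3K4me3.

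Sites were formed by merging overlapping peaks of the 4 libraries of a mark. The span ran from 20 kb before S100A9 to the end of the S100A4 window. Sites were not counted over the whole genome, so the counts below have no background share beside them. More of the genome was under peaks after ATRA for both marks. Of 19 H3K27ac sites, 7 were higher after ATRA and 0 lower, 3 were present in both ATRA libraries and in neither control library, 11 were present in 1 ATRA library only, and 3 were present in all 4. Those absent from control included a site at chr1:153356879-153360705, starting 2844 bp downstream of the S100A8 TSS past the end of the gene, with 3226 and 3573 bp under peaks after ATRA. Another lay 11213 bp upstream of the S100A8 TSS at chr1:153374762-153377279, with 434 and 2478 bp. The distal sites thus flanked S100A8 on both sides. A site 11219 bp upstream of S100A9, inside PGLYRP4, was already present in control cells, with 1170 and 3444 bp under peaks against 4306 and 5595 bp after ATRA. Of the 7 H3K4me3 sites over the same span, 3 were higher after ATRA, 2 were present in both ATRA libraries and in neither control library, and 2 were present in all 4.

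S100A4 and S100A6 lie next to each other, with windows that share 2632 bp, and both carried H3K4me3 at the TSS in all 4 libraries. At S100A4 (chr1:153516089-153522612, minus strand, TSS at 153518282) H3K4me3 covered 5496 and 7969 bp after ATRA and 4390 and 3728 bp in control, a log2 change of 0.61 (0.27 and 0.92 in replicates 1 and 2). The ATRA libraries were above the control libraries without overlap. H3K27ac over S100A4 covered 16524 and 15577 bp after ATRA, the former being the whole window, and 7679 and 10162 bp in control, a log2 change of 0.78 (1.01 and 0.57). A larger H3K27ac change was found in 20.7% of all genes. The peak over the TSS reached 11120 and 9362 bp upstream and 11624 and 6246 bp downstream after ATRA, and 3055 and 5455 bp upstream and 3965 and 3853 bp downstream in control. S100A4 thus kept its H3K4me3 start, and the H3K27ac around it extended farther on both sides after ATRA. The upstream start of S100A4 at 153522612 was under H3K27ac in both ATRA libraries and in control replicate 2, and had no H3K4me3 in any library.

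At S100A6 (chr1:153507075-153508720, minus strand, TSS at 153508467) H3K4me3 did not separate the groups, with 3158 and 2345 bp after ATRA and 3781 and 2188 bp in control, a log2 change of -0.09. H3K27ac over S100A6 covered 7063 and 4564 bp after ATRA and 0 and 3246 bp in control. Both ATRA libraries were above both control libraries, but the size of the change differed. The log2 change was 3.01 between the libraries numbered 1, where control had no peak, and 0.39 between those numbered 2. Control replicate 1 was the H3K27ac library with the fewest peaks. With the longest peaks of each library kept in equal number, S100A6 stayed higher, with a log2 change of the means of 1.63. Relative to the library total the groups overlapped. The part of peak number in the difference between replicates was not tested. The TSS of S100A6 was under H3K27ac in both ATRA libraries and in 1 of the 2 control libraries. Between S100A6 and S100A4, where S100A5 lies, H3K27ac covered 7368 and 5193 bp of 7368 bp after ATRA and 1772 and 3507 bp in control. In ATRA replicate 1 a single H3K27ac peak of 22745 bp ran from S100A6 past S100A4 and over S100A5 and S100A3. The same merged site (chr1:153506658-153529402) held 18488 bp under peaks in ATRA replicate 2 and 7679 and 12555 bp in control.

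S100A11 (chr1:152004982-152020383, minus strand, canonical TSS at 152009480) was marked in control cells already. H3K4me3 covered 12594 and 11320 bp of its 25402 bp window after ATRA and 8348 and 5330 bp in control, a log2 change of 0.72 (0.54 and 0.96), and 2.67% of all genes had a larger one. The canonical TSS was under H3K4me3 and H3K27ac in all 8 libraries. The second annotated start, at 152020383, was under H3K4me3 in both ATRA libraries and in control replicate 1 only. The H3K4me3 site over this upstream start (chr1:152016752-152021412) held 4056 and 3677 bp under peaks after ATRA against 1449 and 0 bp in control. So a share of the S100A11 difference in H3K4me3 lay at the upstream start. H3K27ac over S100A11 covered 14797 and 16817 bp after ATRA and 9530 and 16301 bp in control, and the groups overlapped. It formed 1 peak in each ATRA library, running 11914 and 12992 bp upstream of the canonical TSS, and 4 and 3 separate peaks in the control libraries. Downstream of S100A11, at chr1:152001211-152004371, H3K27ac was present in both control libraries (1400 and 3157 bp) and in neither ATRA library. This site, 5109 bp from the canonical TSS, was the only H3K27ac site in either span that was lower after ATRA. Its peaks were weak, with a −log10 q of 0.96 in control replicate 1 and 0.95 in control replicate 2.

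S100A10 (chr1:151955391-151966335, minus strand, TSS at 151966335) had no peak of either mark in any of the 8 libraries, over a window of 20945 bp. ANXA2, which encodes its partner annexin A2, likewise had no peak of either mark in any library. Over all genes, 34% had no H3K4me3 peak and 30.3% no H3K27ac peak in their windows.

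**Figure D2:**
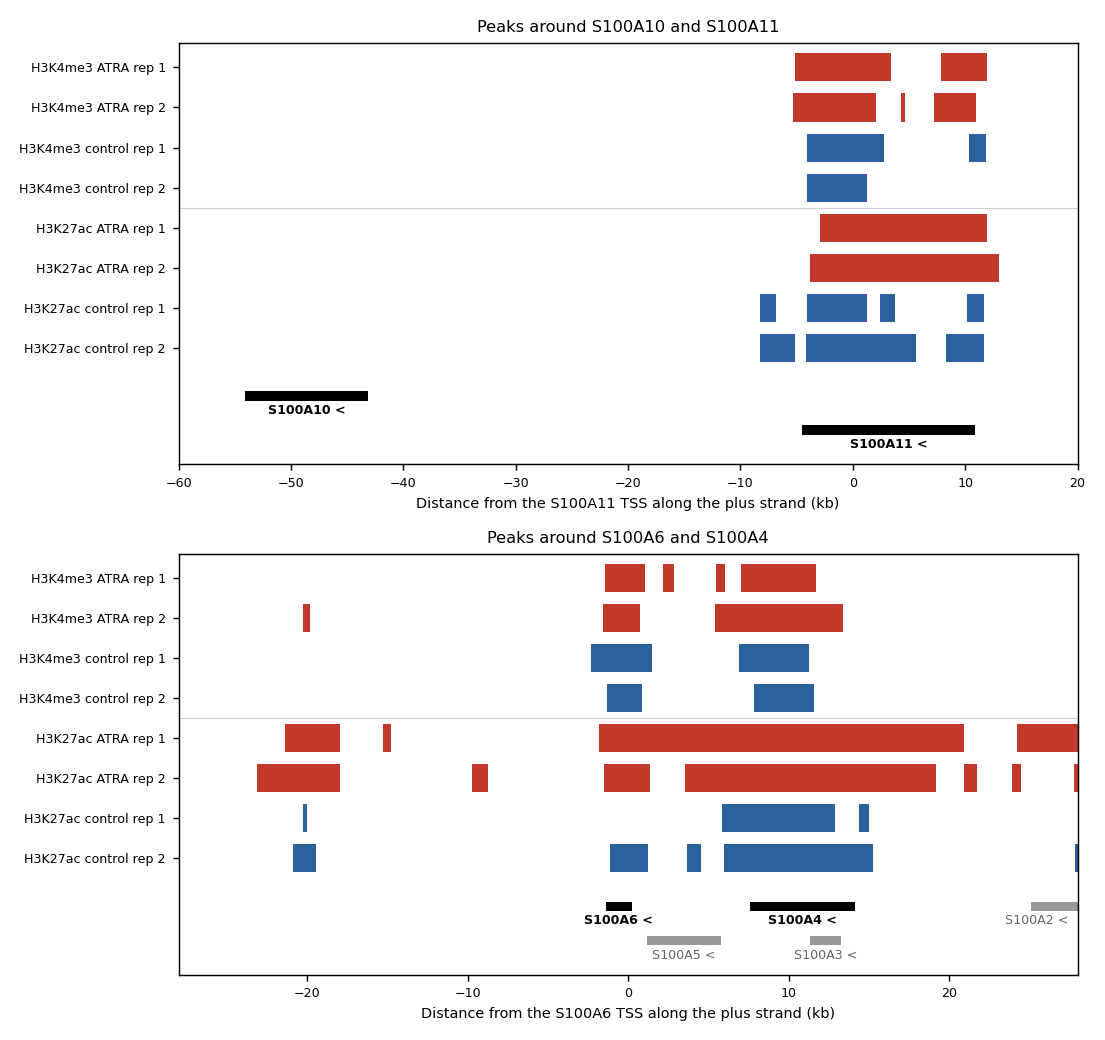
Peaks of each of the 8 libraries around S100A10 and S100A11 (upper panel) and around S100A6 and S100A4 (lower panel). The x axis is the distance in kb along the plus strand from the S100A11 or the S100A6 TSS, each row is a library, each bar a peak (red ATRA, blue control), and gene bodies are drawn below. S100A10 has no peak, S100A11, S100A6 and S100A4 have H3K4me3 in every library, and the H3K27ac peak over S100A6 and S100A4 in ATRA replicate 1 is 22745 bp long.

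Over the 7 genes, 4 were higher and 0 lower after ATRA for H3K4me3 (S100A9, S100A8, S100A11 and S100A4), where 26.5% of all genes were higher and 2.71% lower. For H3K27ac 4 were higher and 0 lower (S100A9, S100A8, S100A6 and S100A4), against 28.2% and 2.83% of all genes. The windows of S100A6 and S100A4 share 2632 bp and, in ATRA replicate 1, the same 22745 bp peak, so these genes are not separate counts. With only peaks of a −log10 q of at least 5, none of the 4 genes counted for H3K27ac was higher, where 2.84% of all genes were. The 4 counted for H3K4me3 stayed higher, where 22.6% of all genes were. The genes higher for both marks were S100A9, S100A8 and S100A4. At the TSS the contrast with the background was larger. S100A8 and S100A9 had H3K4me3 at the TSS in both ATRA libraries and in neither control library, which held for 0.259% of all genes (52 of 20090). S100A11, S100A6 and S100A4 had it in all 4 libraries, as did 50.4% of all genes, and S100A10 and S100A12 in none, as did 45.7%. No member had either mark at the TSS in both control libraries and no ATRA library, a pattern of 0.129% of all genes for H3K4me3 and 0.433% for H3K27ac. For H3K27ac, S100A9 was the only member under a peak at the TSS in both ATRA libraries and no control library, against 3.03% of all genes. S100A11 and S100A4 had H3K27ac at the TSS in all 4 libraries, as did 19.5% of all genes, and S100A10 in none, as did 56.5%. The median log2 change over the 7 genes was 0.61 for H3K4me3 (range -0.09 to 2.46) and 0.98 for H3K27ac (0 to 3.13), beside 0.02 and 0.14 over all genes. Several of these values rest on the 1000 bp added, since their control lengths were 0.

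**Figure D3:**
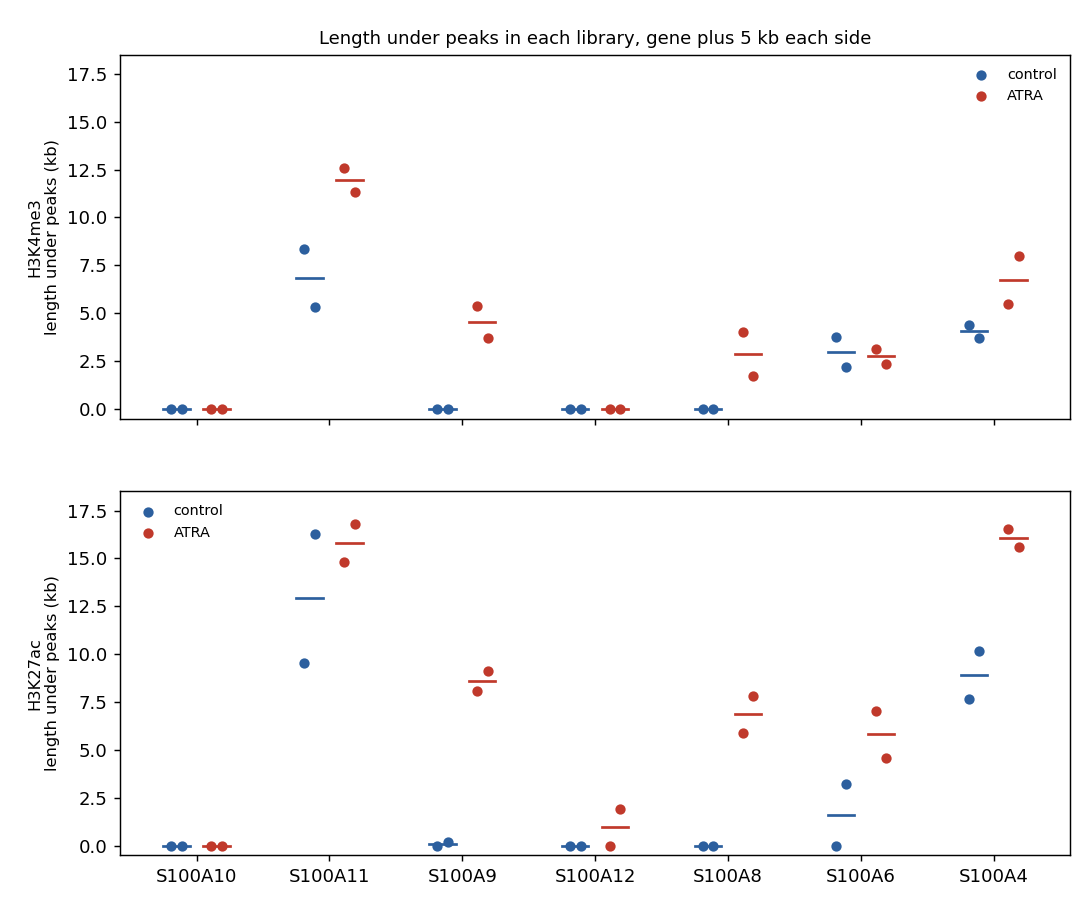
Length under H3K4me3 peaks (upper panel) and H3K27ac peaks (lower panel) in the window of each gene plus 5 kb on each side, in kb. Points are single libraries (blue control, red ATRA) and lines are the means of 2 libraries, with the genes ordered along the chromosome. S100A9 and S100A8 rise from control values of 0 to 0.2 kb, S100A10 is at 0 for both marks, and S100A12 has a value above 0 in a single library.

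**Figure D4:**
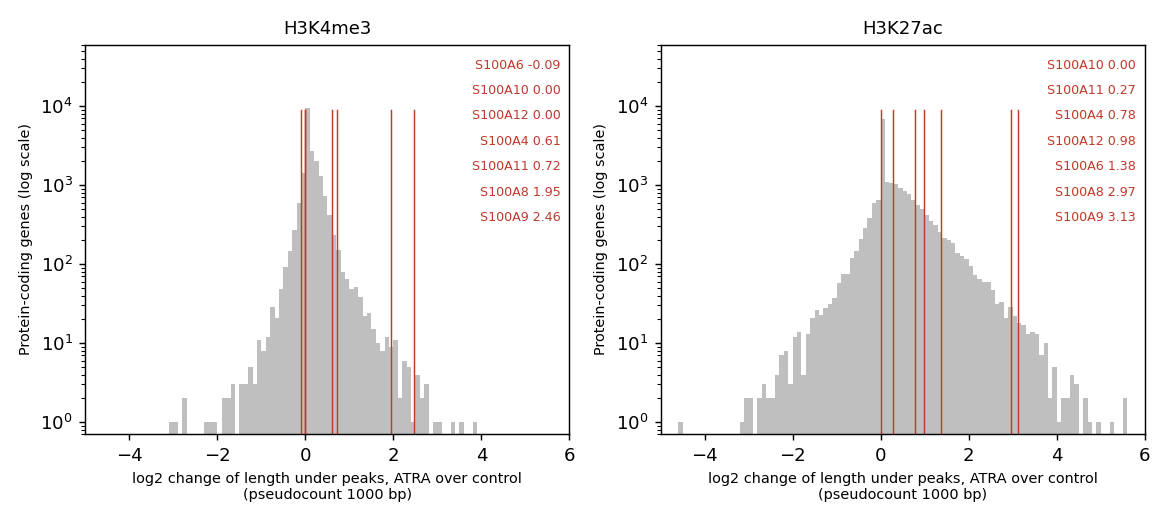
Distribution over all 20090 protein-coding genes of the log2 change of mean length under peaks, ATRA over control with 1000 bp added, for H3K4me3 and H3K27ac, with the 7 genes marked. S100A9 and S100A8 lie in the upper tail for both marks, and the position of genes without a control peak depends on the 1000 bp added.

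Because more of the genome was under peaks after ATRA, the lengths were also divided by the total length under peaks in each library. On this scale S100A9 and S100A8 stayed higher for both marks, with relative log2 changes of 2.38 and 1.87 for H3K4me3 and 2.81 and 2.66 for H3K27ac. S100A11 and S100A4 stayed higher for H3K4me3, at 0.54 and 0.42. H3K27ac over S100A4 no longer separated the groups and its change turned to -0.06, S100A6 overlapped as well, and S100A11 became lower for H3K27ac at -0.54. The share of all genes that were higher was 10.5% for H3K4me3 and 11.9% for H3K27ac on this scale, with 16.5% and 18% lower.

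The promoters with few CpG differed from the rest in H3K4me3 over all genes too. Among 3884 promoters with 0 to 4 CpG, the class of S100A9, S100A8 and S100A12, 6.59% had H3K4me3 at the TSS in all 4 libraries, 0.875% in both ATRA libraries only and 89.4% in none. Among 13275 promoters with 12 CpG or more, the class of S100A10, S100A11 and S100A6, the shares were 68.4%, 0.0603% and 27.8%. S100A4, with 7 CpG, had H3K4me3 in all 4 libraries, which held for 26.7% of the 2927 promoters with 5 to 11. S100A10 thus had a promoter with more CpG than the median and no called peak, and S100A4 one with fewer and a peak in control cells.

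Of the 6 stretches between neighboring members, 5 were higher after ATRA for each mark, where 13.3% of 15651 stretches between protein-coding genes were higher for H3K4me3 and 15.9% for H3K27ac. None was lower for H3K4me3 and 1 for H3K27ac, against 2.49% and 2.21% of all stretches. The background stretches hold no protein-coding gene, while 3 of the 6 here hold other genes with their promoters, so the shares can be set side by side only for the 3 without a gene, of which 2 were higher for each mark. The share under peaks was small in the longest of them, the 1309946 bp from S100A11 to S100A9 with 47 other genes, where H3K27ac covered 11434 and 19570 bp after ATRA and 1927 and 7760 bp in control. From S100A8 to S100A6, over 143525 bp, H3K27ac covered 7062 and 12771 bp against 222 and 1435 bp, part of it in a site at chr1:153485366-153490531 that starts 17936 bp downstream of the S100A6 TSS. That site was present in control cells at 222 and 1435 bp and reached 3422 and 5166 bp after ATRA. The stretch from S100A10 to S100A11 was the exception, with H3K27ac lower after ATRA (0 and 0 bp against 1400 and 3157 bp). H3K4me3 was higher there (659 and 802 bp against 0 bp), but all of it was the edge of the peaks over S100A11. From S100A12 to S100A8, H3K4me3 was likewise the edge of the S100A8 peaks, apart from a 242 bp peak in ATRA replicate 1. Both gene-free stretches counted as higher for H3K4me3 thus mostly repeat peaks of the members.

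Among the 9 other S100A genes of 1q21, H3K27ac was higher in 6 and lower in none, with a median log2 change of 0.98, where 28.2% of all genes were higher. S100A3 and S100A5 lie under the merged H3K27ac site of S100A6 and S100A4, so their values repeat those of the members in part. H3K4me3 was higher in 1 of the 9 (S100A3) and lower in 2 (S100A1 and S100A13), against 26.5% and 2.71% of all genes. S100A1 and S100A13 had the same H3K27ac lengths in control (4456 and 2832 bp). The counts of both marks can therefore hold the same peaks more than once. S100A2, one of the 6 that were higher for H3K27ac, had 9150 and 5013 bp under this mark after ATRA and 1663 and 3474 bp in control. S100A7 and S100A7A, which encode the psoriasins of skin and lie between S100A8 and S100A6, had no peak of either mark. Of 22 epidermal genes between S100A11 and S100A9, such as those of filaggrin, involucrin and the late cornified envelope, 21 had no H3K4me3 peak and 19 no H3K27ac peak. The exceptions called higher were TCHH for H3K4me3 and PGLYRP4 for H3K27ac. PGLYRP4, which lies next to S100A9, had 4597 and 5595 bp under H3K27ac after ATRA and 1170 and 3644 bp in control. It had no H3K4me3 peak. S100A9 was thus bordered by a gene with H3K27ac in every library, and S100A8 on the other side by S100A7A and S100A7, without peaks.

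Of 10 receptors and partners of S100A proteins, 3 were higher for H3K4me3 and 5 for H3K27ac, with median log2 changes of 0.09 and 0.66, and none was lower, where 26.5% and 28.2% of all genes were higher. TLR4, the receptor of calprotectin, had 10476 and 8846 bp under H3K4me3 after ATRA and 7078 and 4609 bp in control, and its H3K27ac overlapped between the groups, with 14544 and 19193 bp against 8003 and 15342 bp. CD36, which takes up fatty acids carried by S100A8 and S100A9, had 3263 and 1670 bp under H3K4me3 after ATRA and 0 bp in control, and 13082 and 44642 bp under H3K27ac against 909 and 4743 bp. MYH9, the heavy chain of the myosin bound by S100A4, was higher for H3K27ac, with 35701 and 26376 bp against 19199 and 14609 bp.

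The genes with the pattern most like each of 4 members were found by the Euclidean distance between the log2 lengths (with 1000 bp added) in the 8 libraries, over all genes. For S100A8 they were DAAM2 at 0.560, CFP at 0.624 and CEACAM4 at 0.644. For S100A9 they were DAAM2 at 0.515, TNNI2 at 0.659 and CFP at 0.936. DAAM2, a formin, had 4587 and 2842 bp under H3K4me3 after ATRA and 0 bp in control, and CFP, which encodes the complement factor properdin, had 2858 and 2337 bp against 0 bp. For S100A4 the closest were RAB8A at 0.685, KIFBP at 0.759 and ADA at 0.765, all of which had both marks in every library. For S100A12 they were TLR7, LIPH and GPR42, at 0.0146 or less, and this likeness rests on H3K27ac peaks in the single library of ATRA replicate 2.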

How the data were processed

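ChIP-seq peaks of H3K4me3 and H3K27ac were analyzed in 8 libraries of HL-60 cells. According to the methods and the submitters' processing notes, the authors trimmed adapters with cutadapt, used Bowtie for alignment against hg19 and ran MACS2 in its broad mode on each library. The deposited files list peak positions, a −log10 q, which was used only as a filter, and 2 further columns of peak strength, which hold impossible values and were not used. Depth is unknown, and the role of input DNA in the calls is not given in the sources used here.

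Genes and TSS came from GENCODE release 44 mapped to GRCh37 (20090 protein-coding genes), on which 0 peaks ran past a chromosome end and 2 peaks lay on chromosomes not used. The length under peaks was summed per window, and log2((mean ATRA + 1000 bp)/(mean control + 1000 bp)) was computed. A gene was called when the 2 libraries of 1 condition lay above both of the other. On simulated peak lists, 0 of 8000 windows had a wrong length. All members are named. The other genes came from lists, from the rule for the 3 most similar patterns, or as examples of a list. Members and lists were chosen with earlier results of these data known. Some genes of the marker lists are not reported here. CpG classes and the examples named from lists were chosen after values were seen. Alternatives were a −log10 q of at least 5, other windows, equal peak numbers, division by the library total, a pseudocount of 100 bp, a larger minimum overlap, any annotated start, a replicate block and leaving out each library. Python 3.11.15, numpy 2.4.6 and matplotlib 3.10.9 were used.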

Additional observations from a re-analysis of the deposited data

How the results depend on the processing

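S100A9 and S100A8 were higher for H3K4me3 under each alternative run, and the count of members with H3K4me3 at the TSS only after ATRA was 2 in each of them. A −log10 q of at least 5 was reached by 12.8% to 16.9% of peaks in each H3K27ac library, and 6.27% of the 5659 genes that were higher for H3K27ac with all peaks were higher with it. With that threshold the H3K27ac count of members higher fell from 4 to 0, the median log2 change from 0.98 to 0, the members at the TSS in ATRA only from 1 to 0 and the stretches higher from 5 to 0. The stretch from S100A10 to S100A11, lower for H3K27ac with all peaks, was then no longer lower. Relative to the library total, 2 members were higher for H3K27ac, and S100A4 reversed to a log2 change of -0.058. The H3K27ac median was 0.53 with 2 kb on each side and 1.78 with a pseudocount of 100 bp. With 1 kb on each side of the TSS, the 1 member with H3K27ac there in ATRA only was S100A8 and no longer S100A9. The stretches higher for H3K4me3 fell from 5 to 3 with equal peak numbers and to 3 with at least 500 bp per peak. Leaving out each library in turn gave 4 to 5 members higher and a median of 0.36 to 0.71 for H3K4me3, and 4 to 6 and 0.68 to 1.08 for H3K27ac. The H3K27ac count at the TSS ranged from 1 to 3, with 3 without ATRA replicate 1 and 2 without control replicate 2. Without control replicate 1 S100A6 became higher for H3K4me3, and without control replicate 2 lower. For H3K27ac, S100A11 became higher without ATRA replicate 1 or control replicate 2, and S100A12 without ATRA replicate 1.

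Libraries that carry 1 replicate number share a tag in their deposited peak names, and their deviations from the condition means correlated over gene windows at 0.218 for H3K4me3 and 0.519 for H3K27ac. The labels do not give the number as a batch and there are only 2 pairs, so the main calls did not use it as a pairing. The log2 changes given per replicate do set libraries of the same number side by side. With a replicate block, 4 members were higher for H3K4me3 (median 0.60, 5 stretches) and 5 for H3K27ac, S100A11 being added (median 0.79, 5 stretches).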
